A study of Mus musculus with 44 samples.

Results

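Elastic fibre genes were examined in the back skin of mice with bleomycin-induced dermal fibrosis. The set is a list of named genes. It holds elastin (Eln), the fibrillins Fbn1 and Fbn2, the microfibril-associated genes Mfap2, Mfap4 and Mfap5, the fibulins Fbln1, Fbln5 and Efemp2 (fibulin-4), and Emilin1. Of these 10 genes, 9 had a row among the 43411 genes of the deposited table, and all 9 had a mean normalized count above 3. Fbn2 was not analysed here. The data were RNA-seq profiles of skin from 44 female wild-type (WT) C57Bl/6 mice that were 8 weeks old when the injections began. Saline was given to 10 mice. Bleomycin was given to 10 mice over 2 weeks and to another 10 over 4 weeks, and 2 more groups had 4 weeks of it and were then left untreated, 6 mice over 6 weeks (6 weeks recovery) and 8 mice over 10 weeks (10 weeks recovery). Bleomycin was injected daily under the back skin, in 100 uL at 1 U/mL per the labels. A supplementary legend of the study gives a lower concentration, and which was used could not be settled here. The sources used here do not say when the saline mice were taken, so age at harvest and time since treatment cannot be told apart.

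Elastic fibres give the dermis its recoil. They are built on a scaffold of microfibrils, whose main polymer is fibrillin and whose associated glycoproteins include those encoded by Mfap2 and Mfap5. Tropoelastin, the product of Eln, is deposited on this scaffold with the help of fibulins and is then cross-linked by lysyl oxidases, while emilins sit at the surface between the elastin core and the microfibrils. In adult skin the RNAs of these genes come mainly from fibroblasts, and smooth muscle and endothelial cells also make some of them.

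Of the genes whose start is in the RefSeq promoter table (build GRCm38.p6), 4 are shown by their upstream sequence, because each has an annotated start with no exon base in the window before it. The set holds genes that were called lower at 2 weeks of bleomycin (Fbln1 and Mfap2) and genes that were not called (Fbln5 and Efemp2). Each window covers the 240 bases from 250 to 11 bases before an annotated start and holds no annotated exon base. It lies at chr15:85205699-85205938 (plus strand) for Fbln1, chr4:141010174-141010413 (plus strand) for Mfap2, chr12:101819130-101819369 (minus strand) for Fbln5 and chr19:5473696-5473935 (plus strand) for Efemp2. Capitals mark the GC box, GGGCGG on either strand.
Fbln1: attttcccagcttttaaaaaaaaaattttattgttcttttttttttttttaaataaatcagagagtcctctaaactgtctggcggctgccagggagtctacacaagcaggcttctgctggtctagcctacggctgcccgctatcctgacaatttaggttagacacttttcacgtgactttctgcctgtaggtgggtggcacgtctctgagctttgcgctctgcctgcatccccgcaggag
Mfap2: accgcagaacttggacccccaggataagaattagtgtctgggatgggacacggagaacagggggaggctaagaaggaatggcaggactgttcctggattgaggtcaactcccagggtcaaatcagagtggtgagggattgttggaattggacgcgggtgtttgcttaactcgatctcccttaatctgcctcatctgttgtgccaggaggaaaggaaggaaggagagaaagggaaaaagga
Fbln5: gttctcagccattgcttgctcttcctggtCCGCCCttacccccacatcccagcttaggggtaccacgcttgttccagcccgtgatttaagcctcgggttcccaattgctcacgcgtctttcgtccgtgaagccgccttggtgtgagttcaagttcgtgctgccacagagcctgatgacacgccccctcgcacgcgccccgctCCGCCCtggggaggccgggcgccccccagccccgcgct
Efemp2: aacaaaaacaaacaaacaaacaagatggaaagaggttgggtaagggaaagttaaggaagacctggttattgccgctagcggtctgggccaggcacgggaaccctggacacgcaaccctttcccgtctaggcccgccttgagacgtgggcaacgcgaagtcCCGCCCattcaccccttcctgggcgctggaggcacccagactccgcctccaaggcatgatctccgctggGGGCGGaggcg
The Fbln1 and Mfap2 windows held 0 GC boxes, and the Fbln5 and Efemp2 windows held 2 each, whereas 31.3% of the 32851 promoters of the same length held at least 1. CAGAC, searched on both strands, occurred 1 time in the Fbln1 and Mfap2 windows, 0 times in that of Fbln5 and 2 times in that of Efemp2, and in 40.9% of all promoters. No window held the TATA box TATAAA, which 12.1% of all promoters held. The letters did not follow the calls over all windows in the table. The windows of the other annotated starts, which overlap exons, held 0 GC boxes for Fbln1, 1 for Mfap2, 0 for Fbln5, and 3 and 5 for Efemp2, while that of Fbn1, called lower at 2 weeks, held 1 and that of Emilin1, which was not, held 0. The matches describe letters only.

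Under bleomycin the RNAs of elastin, fibrillin-1 and the microfibril-associated genes fell, with the strongest fall for Mfap4. At 6 weeks of recovery those that had fallen were back within or above the saline range, and Mfap5 was higher than in every saline mouse. Fbln5 and Efemp2 did not pass the test in any of the 7 comparisons, and Emilin1 was higher than in saline at 4 weeks of bleomycin, by less than 1.5-fold. Genes were called with limma on log2(normalized count + 1) when they differed by more than 1.5-fold and had a Benjamini-Hochberg adjusted p, over 17037 genes, below 0.05. Fold changes below are on this scale, and ± is the standard error. At 2 weeks of bleomycin 6 of the 9 genes were called, all lower than in saline, where 16.7% of all genes tested were called and 7.43% were called lower. The median log2 fold change was -0.97 over the 9 genes and 0.00 over all genes. At 4 weeks 4 of 9 were called, again all lower (17.9% of all genes were called, 7.37% lower), and the median over the 9 was -0.51. At 6 weeks of recovery 1 of 9 was called against saline, higher (5.04% of all genes, 3.33% higher). At 10 weeks 2 of 9 were called, 1 higher and 1 lower (3.05% of all genes, 2.05% higher and 0.998% lower).

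**Figure D1:**
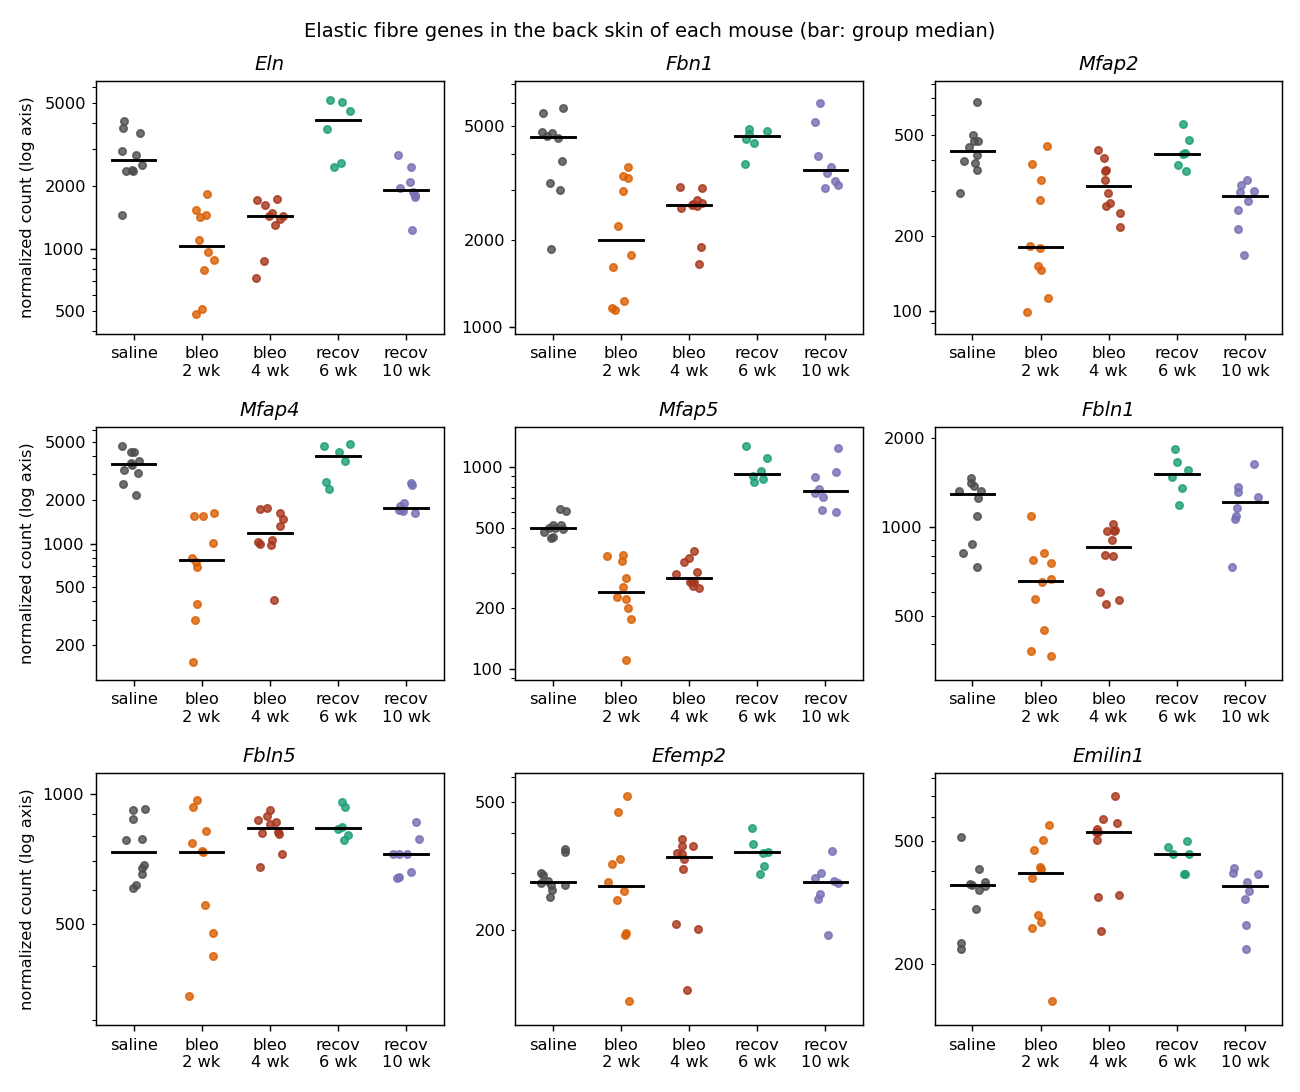
Normalized count (log axis) of the 9 elastic fibre genes in each mouse, by group (bleo, bleomycin; recov, recovery), with a bar at the group median. Mfap4 and Mfap5 in both bleomycin groups lie below all saline mice, and all 6 mice at 6 weeks of recovery lie above all saline mice for Mfap5.

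Elastin itself is encoded by Eln (ENSMUSG00000029675.10, chromosome 5, 134702593 to 134747323, minus strand, GRCm38). Its normalized count was lowest 1445, median 2666 and highest 4117 in the 10 saline mice. At 2 weeks of bleomycin it was 486, 1030 and 1833, and at 4 weeks 719, 1428 and 1725. All 20 bleomycin mice were below the saline median, and the groups overlapped only through saline mouse 1, the lowest of its group: 7 of 10 mice at 2 weeks and 6 of 10 at 4 weeks were below all saline mice. Eln fell 2.71-fold at 2 weeks (log2 -1.44 ± 0.21, adjusted p = 3.4e-07, limma) and was 2.06-fold lower than saline at 4 weeks (log2 -1.04 ± 0.21, adjusted p = 8.1e-05). In recovery its normalized count was 2456, 4158 and 5171 at 6 weeks and 1222, 1923 and 2835 at 10 weeks. At 6 weeks 3 of 6 mice were above every saline mouse, but the difference from saline did not pass (log2 0.46 ± 0.24, adjusted p = 0.22). At 10 weeks 7 of 8 mice were below the saline median, and this did not pass either (log2 -0.48 ± 0.22, adjusted p = 0.21). Eln shares 267 exonic bases with Gm30003 on the opposite strand, whose group medians lay between 0.0 and 0.89.

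Fbn1 (ENSMUSG00000027204.11, chromosome 2, 125300594 to 125507993, minus strand) encodes the main microfibril polymer of adult tissue. The lowest, median and highest normalized counts of Fbn1 were 1866, 4565 and 5784 in saline, 1141, 2008 and 3607 at 2 weeks and 1646, 2659 and 3064 at 4 weeks. Every bleomycin mouse was below the saline median, and the ranges overlapped. Fbn1 fell 1.95-fold at 2 weeks (log2 -0.97 ± 0.19, adjusted p = 9.1e-05, limma) and was 1.58-fold lower at 4 weeks (log2 -0.66 ± 0.19, adjusted p = 0.0061). The recovery groups, at 3680, 4595 and 4869 (6 weeks) and 3029, 3502 and 5988 (10 weeks), lay within the saline range except for 1 mouse at 10 weeks. Against saline the log2 differences in recovery were 0.16 ± 0.22 and -0.06 ± 0.21, with 95% intervals from -0.29 to 0.62 and from -0.48 to 0.35.

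Mfap2 (ENSMUSG00000060572.15, chromosome 4, 141010418 to 141015984, plus strand) encodes MAGP-1, a glycoprotein bound to fibrillin microfibrils. Its lowest, median and highest normalized counts were 293, 433 and 676 in saline, 99.7, 181 and 452 at 2 weeks of bleomycin and 216, 313 and 436 at 4 weeks. At 2 weeks 7 of 10 mice were below all saline mice, and at 4 weeks 4 of 10 were. The fall at 2 weeks was 2.11-fold (log2 -1.08 ± 0.19, adjusted p = 1.9e-05, limma). At 4 weeks Mfap2 was lower by less than 1.5-fold (log2 -0.48 ± 0.19, adjusted p = 0.049), and the adjusted p stayed below 0.05 in only 16 of the 44 fits that left out 1 mouse, and was 0.103 without saline mouse 6. Mfap2 was 361, 423 and 555 at 6 weeks of recovery, inside the saline range. At 10 weeks it was 167, 286 and 331, with all 8 mice below the saline median, and it was called lower than saline, 1.64-fold (log2 -0.72 ± 0.21, adjusted p = 0.0295). This call was lost without saline mouse 6 (log2 -0.64, adjusted p = 0.063), without mouse 2 of the 10-week recovery group (log2 -0.67, adjusted p = 0.060) or without mouse 3 of that group (log2 -0.62, adjusted p = 0.075).

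Mfap5 (ENSMUSG00000030116.12, chromosome 6, 122505845 to 122529290, plus strand) encodes the related glycoprotein MAGP-2. The saline mice were close together, with normalized counts of 447 (lowest), 500 (median) and 622 (highest). The values were 111, 240 and 365 at 2 weeks of bleomycin and 252, 284 and 384 at 4 weeks, so neither bleomycin group overlapped saline. For genes lower than saline, groups that did not overlap were found in 1.33% of all genes tested at 2 weeks and in 2.21% at 4 weeks. Mfap5 fell 2.12-fold at 2 weeks (log2 -1.08 ± 0.14, adjusted p = 5.2e-08, limma) and was 1.72-fold lower at 4 weeks (log2 -0.78 ± 0.14, adjusted p = 2.3e-05). At 6 weeks of recovery it was 840, 930 and 1275, above every saline mouse, which was so for 1.41% of all genes. It was 1.92-fold higher than saline (log2 0.94 ± 0.17, adjusted p = 0.00019). At 10 weeks it was 600, 762 and 1245, with 6 of 8 mice above all saline mice, and 1.56-fold higher (log2 0.64 ± 0.15, adjusted p = 0.0073). Without mouse 2 of the 10-week group, the highest of them, the log2 difference was 0.55 (adjusted p = 0.028), under the 1.5-fold threshold.

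Mfap4 (ENSMUSG00000042436.10, chromosome 11, 61485431 to 61488900, plus strand) encodes a fibrinogen-related protein that binds elastin and fibrillin-1. Its lowest, median and highest normalized counts were 2171, 3520 and 4676 in saline, 153, 769 and 1631 at 2 weeks of bleomycin and 411, 1191 and 1765 at 4 weeks. All 20 bleomycin mice were below all saline mice, and the mice at 2 weeks differed among themselves by 10.6-fold. The fall was 4.85-fold at 2 weeks (log2 -2.28 ± 0.28, adjusted p = 1.5e-08, limma) and the difference at 4 weeks was 2.95-fold (log2 -1.56 ± 0.28, adjusted p = 2.2e-05). At 6 weeks of recovery Mfap4 was 2356, 3986 and 4852, within or above the saline range. At 10 weeks it was 1624, 1769 and 2603, and 6 of 8 mice were again below all saline mice. That difference (log2 -0.83 ± 0.30) did not pass by limma with all mice (adjusted p = 0.093), but it was called without 2-week bleomycin mouse 2 (adjusted p = 0.036), a mouse of neither group compared. Mfap4 shares 89 exonic bases with Mapk7 on the opposite strand, whose group medians lay between 339 and 386.

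Fbln1 (ENSMUSG00000006369.12, chromosome 15, 85205949 to 85286535, plus strand), whose upstream window held no GC box, encodes a fibulin found in the elastin core. Its lowest, median and highest normalized counts were 731, 1289 and 1465 in saline, 366, 658 and 1092 at 2 weeks and 547, 853 and 1020 at 4 weeks. All 20 bleomycin mice were below the saline median, and the ranges overlapped at both times. Fbln1 fell 1.84-fold at 2 weeks (log2 -0.88 ± 0.16, adjusted p = 3.0e-05, limma). At 4 weeks it was lower by 1.43-fold (log2 -0.51 ± 0.16, adjusted p = 0.011), under the threshold of 1.5, which it passed without saline mouse 1 (log2 -0.59, adjusted p = 0.0041). In recovery Fbln1 was 1183, 1518 and 1834 at 6 weeks, with 4 of 6 mice above all saline mice, and 732, 1212 and 1634 at 10 weeks. The log2 differences from saline, 0.40 ± 0.19 (adjusted p = 0.18) and 0.05 ± 0.17, did not pass.

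Fbln5 (ENSMUSG00000021186.8, chromosome 12, 101746565 to 101819055, minus strand) and Efemp2 (ENSMUSG00000024909.12, chromosome 19, 5473954 to 5482517, plus strand) encode the fibulins needed to assemble elastin on microfibrils. Fbln5 had a median normalized count of 735 in saline and of 735, 835, 835 and 725 in the 4 other groups in order of time. Its lowest and highest values were 607 and 922 in saline and 342 and 966 at 2 weeks, where 4 mice were below and 2 above every saline mouse. The log2 difference of Fbln5 from saline was -0.21 ± 0.12 at 2 weeks (95% interval -0.46 to 0.04) and 0.14 ± 0.12 at 4 weeks (-0.11 to 0.39). Efemp2 had medians of 282 in saline and 274, 339, 349 and 281 in the 4 other groups. It ranged from 252 to 356 in saline, but from 120 to 523 at 2 weeks and from 130 to 385 at 4 weeks, so the bleomycin mice lay on either side of the saline mice. Its log2 difference from saline was -0.11 ± 0.18 at 2 weeks (-0.46 to 0.25) and -0.04 ± 0.18 at 4 weeks (-0.40 to 0.32). The lowest limit of these intervals was -0.46. Efemp2 shares 173 exonic bases with Mus81 on the opposite strand, and without a known strand setting of the counting the reads there cannot be assigned with certainty.

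Emilin1 (ENSMUSG00000029163.9, chromosome 5, 30913402 to 30921277, plus strand) encodes a glycoprotein of the surface between elastin and microfibrils. Its lowest, median and highest normalized counts were 224, 359 and 515 in saline, 151, 394 and 565 at 2 weeks and 255, 536 and 702 at 4 weeks, where 6 of 10 mice were above all saline mice. Emilin1 was 1.39-fold higher at 4 weeks (log2 0.47 ± 0.18, adjusted p = 0.033, limma), below the fold threshold. This adjusted p stayed below 0.05 in 36 of the 44 fits that left out 1 mouse. It rose above 0.05 without saline mouse 1 or 2 or without any of mice 4 to 9 of the 4-week group, up to 0.072. At 4 weeks, 7 of the 9 genes thus had an adjusted p below 0.05 at any fold, 1 higher and 6 lower, where 36.6% of all genes did. At 2 weeks Emilin1 differed by 0.04 ± 0.18 on the log2 scale, and in recovery by 0.39 ± 0.21 (adjusted p = 0.23) and -0.02 ± 0.19.

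**Figure D2:**
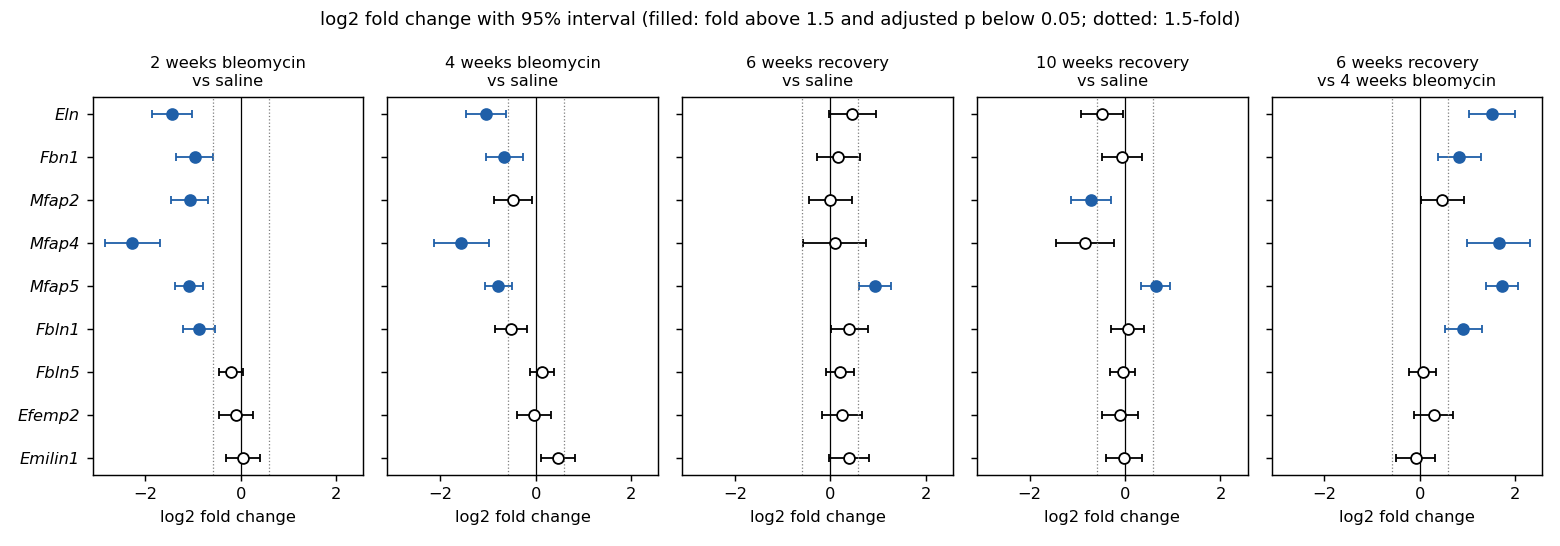
Log2 fold change of each elastic fibre gene in 5 comparisons, with its 95% interval from limma over 44 mice. Filled points passed both the 1.5-fold (dotted lines) and adjusted p thresholds: 6 genes at 2 weeks and 4 at 4 weeks of bleomycin, all lower, and 5 genes higher at 6 weeks of recovery than at 4 weeks of bleomycin.

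The direct comparison of times asked when the levels moved. Between 2 and 4 weeks of bleomycin the fitted values of all 9 genes were higher at 4 weeks. The differences were 0.07 (Efemp2) to 0.72 (Mfap4) on the log2 scale. By limma, edgeR or DESeq2 0 of the 9 were called, where limma called 2.35% of all genes. At any fold, 0 of the 9 had an adjusted limma p below 0.05, where 5.61% of all genes did. The value nearest to a call was that of Mfap2 (log2 0.60 ± 0.19, adjusted p = 0.056), which was called without any of 5 single mice (mice 3, 8, 9 or 10 of the 2-week group or mouse 3 of the 4-week group). Between 4 weeks of bleomycin and 6 weeks of recovery 5 of 9 genes rose, against 11.9% of all genes called and 4.8% called higher. The rise was 2.84-fold for Eln, 1.77-fold for Fbn1, 1.88-fold for Fbln1, 3.14-fold for Mfap4 and 3.30-fold for Mfap5. None of these 5 genes overlapped between the groups, which held for 4.44% of all genes in this direction. Mfap2 was 1.39-fold higher (adjusted p = 0.12), and Fbln5, Efemp2 and Emilin1 differed by 0.06 ± 0.14, 0.29 ± 0.21 and -0.09 ± 0.21 on the log2 scale. This comparison shares the 4-week mice with the one against saline, so the fall and the rise are not independent.

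From 6 to 10 weeks of recovery the fitted values of all 9 genes were lower at 10 weeks, by 0.23 (Fbn1) to 0.95 (Eln) on the log2 scale. By limma 0 were called, where 15 of all 17037 genes (0.088%) were. By edgeR 0 were called, where 21 genes in all were, and by DESeq2 1 was, Eln, where 63 in all were. At any fold, 0 of the 9 had an adjusted limma p below 0.05, where 0.0939% of all genes did. Eln differed by -0.95 ± 0.25 (adjusted p = 0.12), Mfap4 by -0.92 ± 0.34 (adjusted p = 0.31) and Mfap2 by -0.71 ± 0.23 (adjusted p = 0.23), and the 2 groups did not overlap for Mfap2 (lower without overlap in 0.587% of all genes). Fitting only these 2 groups called all 3 of them, and that fit also called more genes in all, 59 against 15.

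Levels can be compared between genes only per length of exon, here per kb of the joined exons of the GENCODE M21 model. By mean normalized count per kb Mfap4 came first in all 5 groups, at 1814 ± 404 (SD, n = 10) in saline and 458 ± 281 at 2 weeks of bleomycin. Mfap2, Eln and Fbn1 followed in saline at 366 ± 84.4, 350 ± 99.5 and 344 ± 100, which differed by less than their SDs. Fbln1 was at 267 ± 61.5, below Eln and Fbn1 by less than the SDs of those genes but by more than its own. Mfap5 was at 143 ± 16.3, Fbln5 at 109 ± 17.6, Efemp2 at 77.7 ± 9.03 and Emilin1 at 70.3 ± 16.9. Of these, the neighbours Efemp2 and Emilin1 also lay within 1 SD of each other. Mfap4 made up 51.2% of the summed per-kb level of the 9 genes in saline, 31.8% at 2 weeks and 47.7% at 6 weeks of recovery. The summed level had a median of 3555 in saline, of 1169 and then 1917 under bleomycin, and of 4154 and then 2546 in recovery.

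Since Mfap2 and Mfap5 encode related glycoproteins of the same microfibrils, their ratio per kb was taken in each mouse. This ratio was chosen after the values were seen and is given as a description. The Mfap5 to Mfap2 ratio had medians of 0.39 in saline, 0.36 at 2 weeks and 0.32 at 4 weeks of bleomycin, with ranges of 0.24 to 0.72, 0.23 to 0.76 and 0.21 to 0.60. In recovery the medians were 0.79 at 6 weeks and 0.84 at 10 weeks. The lowest ratio was 0.64 at 6 weeks and 0.73 at 10 weeks, so the 6-week range overlapped those of saline and 2 weeks of bleomycin, and the 10-week range that of 2 weeks of bleomycin. The ratio of Emilin1 to Eln, chosen in the same way, had medians of 0.21 in saline, 0.51 and 0.61 in the bleomycin groups and 0.17 and 0.29 in recovery. Its lowest value in any bleomycin mouse, 0.38, was above its highest in saline, 0.28.

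**Figure D3:**
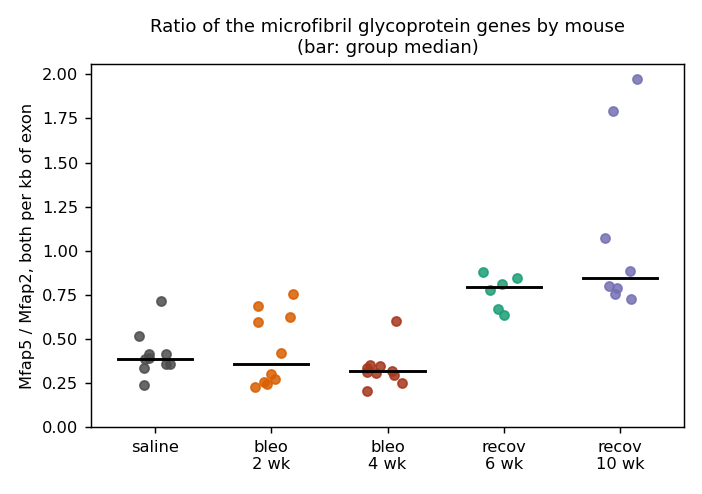
Ratio of Mfap5 to Mfap2, both per kb of exon, in each mouse by group (bleo, bleomycin; recov, recovery), with a bar at the group median. The recovery mice lie between 0.64 and 1.97, 9 of the 10 saline mice lie at or below 0.52, and the 2-week mice lie between 0.23 and 0.76.

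Mice of 1 group also differed from each other in a partly shared way. Mouse 7 of the 2-week group had the lowest normalized count of its group for 6 of 9 genes, as did mouse 3 of the 4-week group for 6 of 9, and mouse 3 of the 10-week recovery group did so for 7 of 9. Mouse 5 at 6 weeks of recovery was the highest of its group for 6 of 9. Some genes went the other way. Mouse 3 of the 4-week group was the highest of its group for Mfap5 (384). Mouse 2 of the 2-week group was the lowest of its group for Fbn1 and Mfap4 but the highest for Efemp2 (523). With the group means taken off log2(normalized count + 1), the 36 pairs of genes had Pearson's r from -0.20 to 0.85 over the 44 mice, with a median of 0.62, and Spearman's rho from -0.27 to 0.83. By permutation within groups, adjusted over the 36 pairs, r passed 0.05 in 25 pairs and rho in 27 pairs. The share of pairs of other genes that would pass was not counted, so these counts do not set the elastic fibre genes apart. The highest r was that of Fbln1 with Emilin1 (r = 0.85, rho = 0.83, adjusted p = 3.6e-05 for r), and leaving out the pair of mice with the most extreme Fbln1 gave 0.84. Mfap5 stood apart over the 44 mice, with r between -0.20 (with Emilin1) and 0.28 (with Mfap4), and without any adjusted p below 0.05. Within single groups its r ran from -0.55 (Emilin1, 4 weeks of bleomycin) to 0.85 (Efemp2, 6 weeks of recovery). Within the separate groups the median r of the 36 pairs was 0.42 in saline, 0.68 and 0.66 in the bleomycin groups, and 0.52 and 0.56 in recovery. The values of 1 mouse come from the same library and biopsy.

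**Figure D4:**
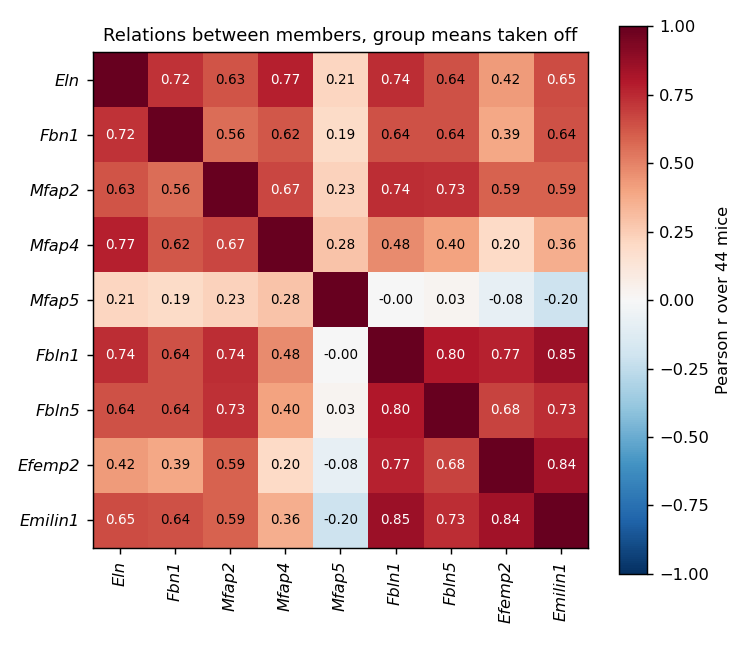
Pearson's r between each pair of elastic fibre genes over 44 mice, after group means were taken off log2(normalized count + 1). The pairs that include Mfap5 lie between -0.20 and 0.28, and the other pairs are all at 0.20 or above.

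Of all genes tested, the 5 closest to Eln in the same measure were Adamts2, a procollagen N-proteinase (r = 0.89, rho = 0.91), Col5a1, a collagen that regulates fibril diameter (r = 0.88, rho = 0.87), the transcription factor gene Glis2 (r = 0.88, rho = 0.90), Ssc5d (r = 0.87, rho = 0.86) and Cilp (r = 0.86, rho = 0.82). The 8 other elastic fibre genes had r with Eln from 0.21 to 0.77, with a median of 0.65. Over all other genes tested r ran from -0.77 to 0.89, with a median of 0.00. The share of those with r as high as the elastic fibre genes was not counted. At 4 weeks of bleomycin, where Eln differed from saline by -1.04 on the log2 scale, the differences were -0.04 for Adamts2, -0.00 for Col5a1, -0.31 for Glis2, -0.92 for Ssc5d and -1.70 for Cilp.

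The lysyl oxidases cross-link tropoelastin and collagen. For comparison with the counts in this and the next lists, 7.43% of all genes were called lower and 9.3% higher at 2 weeks. At 4 weeks these shares were 7.37% and 10.5%. Of the 5 in the LOX family, 2 were called lower at 2 weeks of bleomycin, Loxl1 (log2 -1.21 ± 0.18) and Loxl2 (-0.72 ± 0.17). Loxl1, which acts on elastin with fibulin-5, thus fell with Eln, from a median normalized count of 865 to 396, was still lower at 4 weeks (log2 -0.82 ± 0.18) and was higher than saline at 6 weeks of recovery (0.71 ± 0.20). Lox took another course, with 0.17 ± 0.13 at 2 weeks, a rise at 4 weeks (1.02 ± 0.13, no overlap with saline) and at 6 weeks of recovery (2.14-fold, no overlap with saline), and 0.07 ± 0.14 at 10 weeks. Loxl3 was called higher at 4 weeks (0.63 ± 0.17) and at 6 weeks of recovery (0.86 ± 0.20), and Loxl4 was not called against saline.

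Among 9 other fibulins, EMILINs and multimerins, 4 were called lower and 1 higher at 2 weeks. Hmcn2, a hemicentin, had the largest difference (log2 -2.62 ± 0.23), with a median of 559 in saline and 89.1 at 2 weeks, and stayed low at 4 weeks (-2.75 ± 0.23). Fbln7 fell at 2 weeks (-1.43 ± 0.24) and was called higher than saline at 6 (1.81 ± 0.28) and 10 weeks of recovery (1.46 ± 0.26). Mmrn2, an endothelial multimerin, was higher in all 4 comparisons with saline, by 0.65 to 1.29. Of 10 LTBP and ADAMTS(L) microfibril genes tested, 2 were lower and 1 higher at 2 weeks, and 2 were lower and 2 higher at 4 weeks. Adamtsl2 (log2 -1.46 at 2 weeks and -1.31 at 4 weeks) and Ltbp4, a binding protein needed for elastic fibre assembly (-1.29 and -0.72), were lower at both times, and Ltbp2 was higher at 4 weeks (1.37).

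Among 10 elastin-degrading proteases tested, 1 was called at 2 weeks, Ctss (cathepsin S, log2 2.13), where 9.3% of all genes were called higher. At 4 weeks 5 of the 10 were called, all higher, where 10.5% of all genes were. These included Ctss (1.88) and the macrophage elastase Mmp12 (1.83), whose median normalized count was 145 in saline and 482 at 4 weeks. Prtn3 was higher at 6 (1.06) and 10 weeks of recovery (1.33). Of 9 elastin receptor and integrin genes, 5 were higher and 2 lower at 2 weeks at an adjusted p below 0.05, all by less than 1.5-fold, where 35.6% of all genes tested passed at any fold (17.4% higher and 18.2% lower). At 4 weeks Itga5 was called higher (0.91) and Itgb3 lower (-0.65). Of 5 fibrillar collagen genes 3 were called lower at 2 weeks, Col1a1 (-0.71), Col1a2 (-0.75) and Col5a1 (-0.97), and at 4 weeks their log2 differences were 0.30, 0.18 and -0.00, while Eln, Fbn1, Mfap4 and Mfap5 were still lower. These lists and their counts are described only, with no test of a list.

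In bulk skin, fewer cells of a type and less RNA per cell cannot be told apart. Markers of several cell types moved with the elastic fibre genes. The shares of all genes called lower and higher than saline were 7.43% and 9.3% at 2 weeks and 7.37% and 10.5% at 4 weeks. Of 8 fibroblast markers, 5 were called lower at 2 weeks (Pdgfra, Dpt, Col6a1, Col6a2 and Pi16) and 3 at 4 weeks (Pdgfra, Dpt and Pi16), and their summed normalized count was 27571 to 65050 in saline, 23701 to 47992 at 2 weeks and 32668 to 43069 at 4 weeks. Lum, another fibroblast marker, differed by 0.30 and 0.27. At 6 weeks of recovery Dpt and Pi16 were back near saline (log2 -0.18 and -0.02), but Pdgfra was not (-1.02). Between 4 weeks of bleomycin and 6 weeks of recovery, where 5 elastic fibre genes rose, other markers moved too. Called higher were 2 of 8 fibroblast (Dpt and Pi16), 5 of 5 hair follicle (log2 3.97 to 5.90) and 3 of 5 adipocyte markers. Called lower were 3 of 5 macrophage markers. In that comparison 4.8% of all genes were called higher and 7.14% lower. Of 5 macrophage markers 3 were called higher in each bleomycin group, with sums of 7819 to 20997 in saline and 19032 to 35869 at 2 weeks, and the smooth muscle and pericyte list had 2 of 6 called higher at each time (Rgs5 and Des). All 5 hair follicle markers tested were called lower in both bleomycin groups, with sums of 1867 to 196961 in saline, 10.9 to 1486 at 2 weeks and 20.3 to 4554 at 4 weeks. Of 5 adipocyte markers 3 were lower at 2 weeks and 2 at 4 weeks, and endothelial (3 of 5 at both times) and Schwann cell markers (1 of 4 and 4 of 4) were higher. Keratinocyte and skeletal muscle markers were present in every mouse, at summed counts of at least 113493 and 69567, and they differed from saline by less than the fold threshold at 2 and 4 weeks. The part of any of these cell types in the results for the elastic fibre genes was not tested. The reads on genes numbered 8509094 to 15285577 per mouse (median 11310008), and the fewest reads behind a value of any elastic fibre gene in 1 mouse were 87 for Mfap2 at 2 weeks.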

How the data were processed

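RNA was isolated from skin biopsies, libraries were made with the TruSeq stranded mRNA kit, and the authors aligned the paired reads to mm10 with STAR 2.4.0. They divided the count of each gene in each mouse by a DESeq2 1.12.3 size factor and deposited these normalized counts, a signal per gene. How reads were counted, with which annotation and whether by strand, is not given in the sources used here. Whole reads were recovered from the steps between values (100.0% whole within 0.05 in the mouse with the lowest share). Gene IDs were matched to GENCODE M21 symbols (98.9%), and 0 columns were left unassigned.

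Genes with a mean above 3 were tested with limma 3.58.1 (mean-variance trend, R 4.3.3) on log2(normalized count + 1), with all 44 mice and 5 groups in 1 fit. The recovered reads were tested with edgeR 4.0.16 and DESeq2 1.42.0. The fit was tested on simulated data. Permutations within groups numbered 100000, so 1e-05 is the smallest p they can give. The members and lists were chosen with earlier results of these data known. All listed elastic fibre genes were named, with the 5 genes closest to Eln, all LOX genes and up to 3 called genes of each related list with the largest difference. Mice are separate animals. Sequences are from RefSeq (GRCm38.p6).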

Additional observations from a re-analysis of the deposited data

Results flagged for a closer look

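For 5 elastic fibre genes the difference of 6 weeks recovery from 4 weeks bleomycin passed the test by limma, which means that their differences from saline were not the same at these times. On the log2 scale Eln was higher at 6 weeks of recovery by 1.51 (adjusted p = 5.0e-06), Fbn1 by 0.82 (adjusted p = 0.0051), Fbln1 by 0.91 (adjusted p = 0.00029), Mfap5 by 1.72 (adjusted p = 6.2e-11) and Mfap4 by 1.65 (adjusted p = 0.00018). Each of the 5 was higher in all 6 recovering mice than in all 10 mice at 4 weeks of bleomycin. No mouse lay far from the others of its group by Dixon's test in the 45 combinations of gene and group examined.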

How the results depend on the processing

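The calls at 2 weeks of bleomycin (6 of 9 genes), at 6 weeks of recovery against saline (1) and against 4 weeks of bleomycin (5) were the same in number under every alternative and without each single mouse. Leaving out 1 mouse gave 4 to 5 called genes at 4 weeks against saline (5 to 7 at any fold), 0 to 3 at 10 weeks of recovery against saline (1 to 3 at any fold), and 0 to 1 between the bleomycin times (0 to 2 at any fold). At 4 weeks against saline the 7 genes at any fold became 6 with a pseudocount of 0.1, no filter, either other normalization, the block or edgeR, and 5 without saline mouse 1 and 2-week bleomycin mouse 2. At 10 weeks of recovery against saline, 3 genes were called when only the 2 groups were fitted, without saline mouse 1 and 2-week bleomycin mouse 2, and by DESeq2, Mfap4 being the third. Of all genes, these fits called 326, 585 and 656 in that order, where the main fit called 519. Between the recovery times, where limma called 0 of the 9 genes at either threshold, fitting only the 2 groups called 3, leaving out saline mouse 1 and 2-week bleomycin mouse 2 called 1, and DESeq2 called 1. Of all genes, these fits called 59, 58 and 63 in that order, where the main fit called 15. The cause was not tested.

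Replicate numbers did not pair the mice (78 pairs with the same number, correlations from -0.69 to 0.38), and with them as a replicate block 2 genes in place of 1 had an adjusted p below 0.05 at any fold at 6 weeks of recovery, the only count this block moved by over 1.5 times. Log2 differences near 0 changed sign, none of them called. For Efemp2 the values were 0.016 by edgeR, 0.00092 by DESeq2 and -0.21 to 0.024 without each single mouse at 2 weeks, 0.044, 0.024 and -0.089 to 0.084 at 4 weeks, and -0.065 to 0.19 without each mouse between these times. For Emilin1 at 2 weeks they were -0.043 without saline mouse 1 and 2-week bleomycin mouse 2 and -0.035 to 0.18 without each mouse, at 10 weeks of recovery 0.035 with the block and -0.086 to 0.063 without each mouse, and 0.014 with the block at 6 weeks of recovery against 4 weeks of bleomycin. For Mfap2 at 6 weeks of recovery against saline they were 0.022 with quantile normalization, 0.0050 with trimmed means, 0.086 with the block, 0.012 without the 2 mice and -0.074 to 0.069 without each mouse. At 10 weeks of recovery Fbn1 was at 0.026 and Fbln5 at 0.0085 with the block, and Fbln1 at -0.020 without the 2 mice and -0.020 to 0.15 without each mouse. Of the other values for single genes, 785 kept their direction and side of the threshold, 11 newly passed it and 2 no longer did. For the fits without a single mouse, these counts hold only the lowest and highest value of each gene and comparison. Other calls lost or gained in those fits are not in them. At least 87 reads lay behind each value of an elastic fibre gene.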
